A study of Mus musculus with 12 samples.

Results

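The comparison described here asks whether the liver of Atf6α-/- mice responded to tunicamycin (TM) differently from wild-type liver. For each probeset, a set of short probes that reads one transcript, the mean difference between TM and vehicle was taken in Atf6α-/- animals and in wild-type animals, and the second was subtracted from the first. This interaction is negative where the increase was smaller (or the decrease larger) without ATF6α, and positive where the reverse held. It was computed over all 12 of the 12 arrays of the series and tested for 45037 of 45101 probesets, the 64 control probesets of the manufacturer being left out. One probeset per gene, the brightest that names a single gene, stands for 18193 genes.

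The 4 groups were wild-type (+/+) mice given vehicle, wild-type mice given TM, Atf6α-/- mice given vehicle and Atf6α-/- mice given TM, with 3 animals and 3 arrays in each. TM was injected into the peritoneum at 2 mg/kg in dextrose, dextrose alone was the vehicle, and livers were taken 8 h later. The animals were of variable age and gender, and the labels give neither for any one animal. The deletion is constitutive and present in every cell, so that a difference between genotypes can include what the liver has adjusted to over the animal's life. RNA came from whole liver homogenate, and fewer cells of a type and less RNA per cell cannot be told apart in it.

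TM blocks N-linked glycosylation, so that glycoproteins fail to fold in the endoplasmic reticulum (ER). The unfolded protein response is signalled by the sensors IRE1α, PERK and ATF6α. ATF6α is a transmembrane protein of the ER that moves to the Golgi under stress, where proteases release its cytosolic part as a transcription factor. This fragment acts with NF-Y at ER stress response elements, which XBP1, the factor made after IRE1α splices its mRNA, can also bind. PERK phosphorylates eIF2α, which lowers protein synthesis and favours the translation of ATF4.

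Array medians lay between 4.98 and 5.11 on the log2 scale. On 1 array of each group the Y-linked *Eif2s3y* read 8.21 or more, and it read 3.44 or less on the other two, so the groups had this mix in common. *Atf6* itself read 9.04 ± 0.38 (SD, n = 3) in vehicle animals and 10.97 ± 0.21 after TM in wild-type liver, and 7.33 ± 0.41 and 10.15 ± 0.37 in Atf6α-/- liver. Its interaction of 0.89 (SE 0.34) did not pass (limma, adjusted p = 0.330). A signal is therefore measured at the *Atf6* probeset in the knockout, and the part of the transcript that it reads was not analysed here. Hepatocyte markers averaged between 12.72 and 13.19 in all groups, and 0 of 79 genes on 9 lists of markers of liver, blood and pancreatic acinar cells passed the test. Of all genes 1.06% were called higher and 0.748% lower, so 0 of 79 does not set the markers apart from genes at large. The interaction was below 0 in 11 of 12 macrophage and Kupffer cell markers (median -0.24), 5 of 6 neutrophil markers (-0.27), 5 of 6 pancreatic acinar markers (-0.23) and 6 of 7 cholangiocyte markers (-0.08). It was also below 0 in 4 of 5 erythroid markers (-0.03) and 5 of 10 lymphocyte markers (0.01). It was above 0 in 7 of 13 hepatocyte (0.07), 7 of 10 endothelial (0.07) and 6 of 10 stellate cell markers (0.03). Over all 18193 genes, 9707 lay below 0. Of the 7 cholangiocyte markers, 4 or 5 per group lay below the array median. The mean of the macrophage markers ranged from 9.15 to 9.40 on the arrays of wild-type animals given TM and from 8.71 to 9.20 on those of Atf6α-/- animals given TM, and the part of these differences in the results was not tested.

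A gene was called where limma's p was under 0.05 after Benjamini-Hochberg adjustment across every probeset tested and the responses differed by over 1.5-fold. Of the 18193 genes, 136 (0.748%) were called lower and 193 (1.06%) were called higher. Among probesets, 262 (0.582%) were lower and 295 (0.655%) higher. With the arrays centred on *Btf3* and *Ppia*, the controls that the study used for qRT-PCR, 130 genes were lower and 107 higher. The calls lower were the larger in size. They reached -4.66, and 100 of 136 differed by over 2-fold, against 96 of 193 calls higher, which reached 2.54.

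In the genes called lower the median wild-type response was 1.48 (quartiles 0.76 and 2.31) and the median Atf6α-/- response was 0.05 (quartiles -0.34 and 0.59). With vehicle the median difference between the genotypes was -0.0001 and with TM it was -1.30. In the genes called higher the median response was 0.38 (quartiles 0.02 and 0.76) in wild-type and 1.40 (quartiles 0.93 and 1.83) in Atf6α-/- liver. Their median difference between genotypes was -0.15 with vehicle and 0.86 with TM. These medians describe genes chosen on the same arrays and carry no test. Over all genes the median interaction was -0.02, with a median response of -0.06 in wild-type and -0.10 in Atf6α-/- liver.

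**Figure D1:**
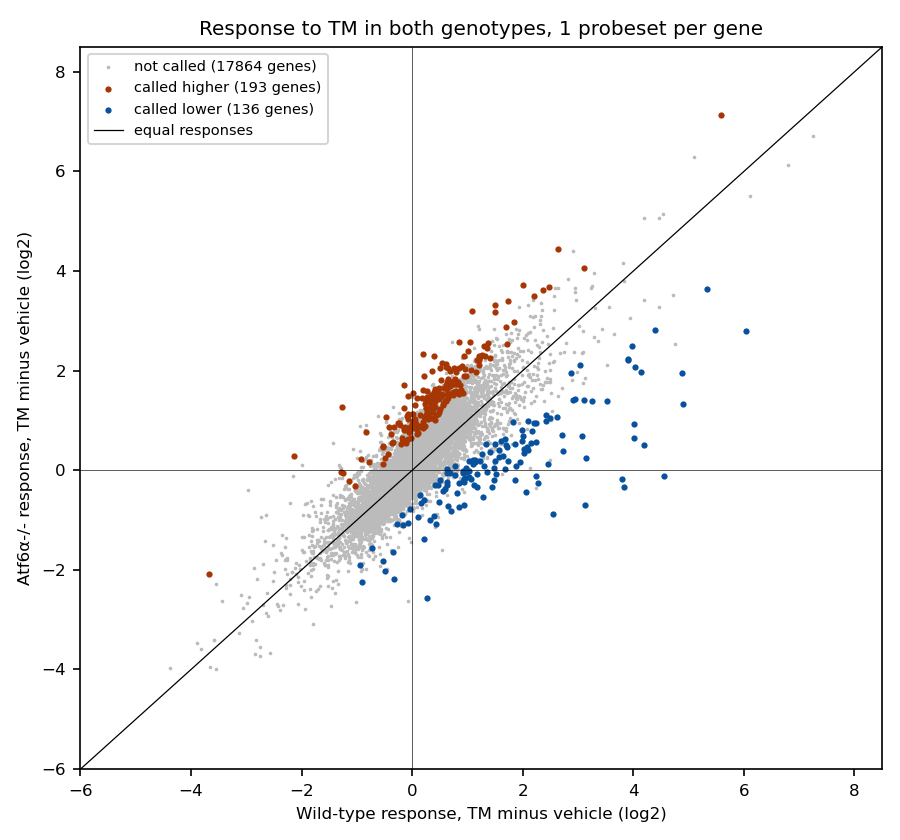
Response to TM (TM minus vehicle, log2) in wild-type liver (x axis) and in Atf6α-/- liver (y axis), 1 point per gene, means of 3 animals per group. The 136 genes called lower lie below the line of equal responses, most of them to the right of 0 and near 0 in height, and the 193 called higher lie above it in a narrower band.

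Some genes of the ER lumen and of its quality control had smaller responses in Atf6α-/- liver than in wild-type liver. On 5 lists of the secretory pathway, 11 of 158 measured genes were called lower (0.748% of all genes were) and 0 were called higher, and 124 of the 158 had an interaction below 0 (median -0.19, against -0.02 over all genes). The called genes were the chaperones *Creld2*, *Sdf2l1*, *Dnajb11* and *Cnpy3*, the disulfide isomerases *Pdia4* and *Pdia3*, the degradation factors *Derl3*, *Sel1l*, *Syvn1* and *Edem1*, and the magnesium transporter and oxidoreductase *Magt1*, a subunit of the oligosaccharyltransferase.

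*Pdia4* encodes an isomerase that forms and reshuffles disulfide bonds in folding proteins. Its log2 value was 9.36, 9.23 and 9.46 in the 3 wild-type animals given vehicle and 12.24, 12.88 and 12.36 in those given TM. In Atf6α-/- animals it was 9.64, 9.52 and 9.60 with vehicle and 9.68, 9.82 and 9.98 with TM. The wild-type TM arrays were high, and the Atf6α-/- TM arrays lay just above all vehicle arrays. The mean response was 8.84-fold in wild-type and 1.18-fold in Atf6α-/- liver, an interaction of -2.91 (SE 0.21, limma, adjusted p = 5.79e-05). The other probeset of *Pdia4* had -0.61 and was not called (adjusted p = 0.0632), and the mean of both had -1.76 (adjusted p = 9.29e-05).

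*Creld2*, an ER-resident factor with isomerase activity, kept part of its response. It read 9.09, 9.82 and 9.18 in wild-type animals with vehicle and 14.13, 14.26 and 14.32 with TM. The Atf6α-/- values were 9.44, 8.79 and 9.12 with vehicle and 10.88, 10.97 and 11.38 with TM. Both genotypes were higher with TM without overlap, by 29.3-fold in wild-type and 3.90-fold in Atf6α-/- liver, and the interaction was -2.91 (SE 0.29, adjusted p = 0.000465).

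*Sdf2l1* and *Dnajb11*, partners of the chaperone BiP, also had larger responses in wild-type than in Atf6α-/- liver. The response of *Sdf2l1* was 4.15 in wild-type and 1.97 in Atf6α-/- liver, and the interaction was -2.18 (SE 0.33, adjusted p = 0.00754). For *Dnajb11* the responses were 2.61 and 1.07, with an interaction of -1.54 (SE 0.19, adjusted p = 0.00206). *Cnpy3*, a co-chaperone for Toll-like receptors, had a response of 1.03 in wild-type and 0.18 in Atf6α-/- animals (interaction -0.85, adjusted p = 0.0388), and its call was lost without any one of 9 arrays.

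The most abundant chaperones did not pass. *Hspa5*, which encodes BiP, was 12.34, 13.16 and 12.32 with vehicle and 14.43, 14.49 and 14.53 after TM in wild-type liver. In Atf6α-/- liver it was 12.90, 12.61 and 12.94 with vehicle and 14.24, 14.17 and 14.40 with TM. All 6 TM arrays were above all 6 vehicle arrays, by means of 3.67-fold in wild-type and 2.74-fold in Atf6α-/- liver, and the interaction was -0.42 (SE 0.27, adjusted p = 0.626). The brightest probeset of an array lay between 14.90 and 14.97, not far above the wild-type TM values of *Hspa5*. Whether its signal was limited at that height was not tested. *Hsp90b1*, the ER form of HSP90, had an interaction of -0.53 (adjusted p = 0.333), and the lectin chaperone *Calr* one of -0.36 (adjusted p = 0.231).

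Several other folding genes had sizeable but uncalled interactions. *Manf*, a secreted ER stress factor, had -1.35 (SE 0.34, adjusted p = 0.0927), *Dnajc3*, a co-chaperone that also restrains PERK, had -1.25 (SE 0.28, adjusted p = 0.0540), and *Pdia6* had -0.88 (SE 0.23, not called). In *Manf* 1 wild-type vehicle animal read 11.97 against 10.71 and 10.95 in the other two. Over the 46 chaperones, isomerases and oxidases measured, 37 had an interaction below 0 and 6 were called lower (0.748% of all genes were). *Dnajb9* and *Fkbp11*, whose responses were 2.31 and 3.02 in wild-type liver, read 2.37 and 2.89 in Atf6α-/- liver, with interactions of 0.06 (SE 0.31) and -0.12 (SE 0.30) that did not pass.

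**Figure D2:**
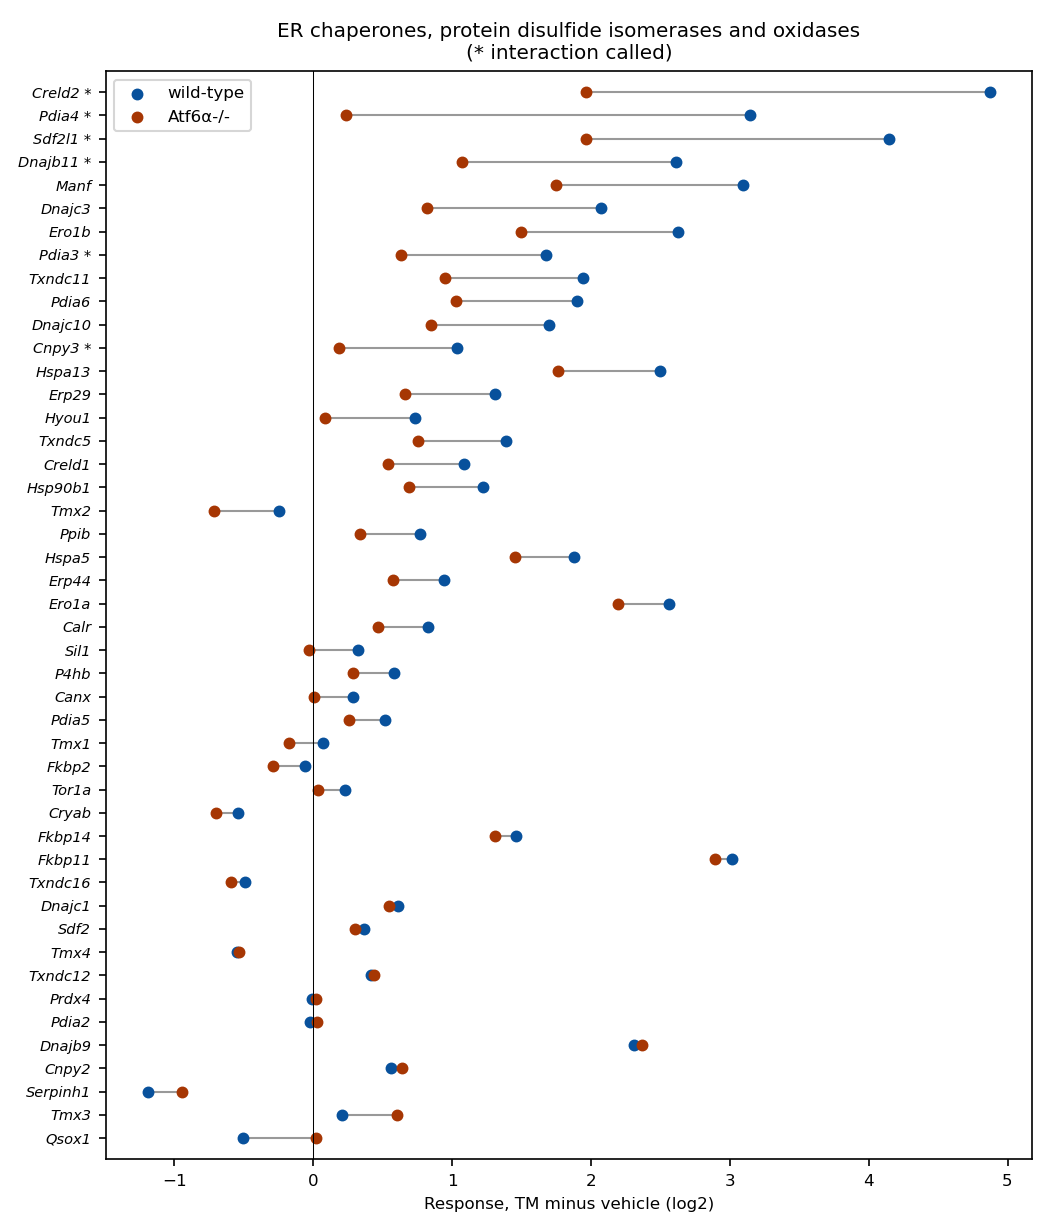
Mean response to TM (TM minus vehicle, log2, 3 animals per group) of 46 ER chaperones, disulfide isomerases and oxidases in wild-type (blue) and Atf6α-/- (brown) liver, ordered by the interaction, with an asterisk where it was called. The Atf6α-/- point lies to the left of the wild-type point in 37 genes, by the most in *Creld2* and *Pdia4*, and the 2 points nearly meet in *Dnajb9* and *Fkbp11*.

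Among 26 genes of ER-associated degradation 4 were called lower and 0 higher, against 0.748% and 1.06% of all genes. The median interaction was -0.15, and it lay between -0.30 (without wild-type vehicle animal 2) and -0.06 (without Atf6α-/- vehicle animal 3) when 1 array was left out. *Derl3*, a derlin of the retrotranslocation complex, read 7.92, 7.54 and 7.62 with vehicle and 13.58, 13.86 and 13.77 after TM in wild-type liver. The Atf6α-/- values were 7.68, 6.77 and 6.85, and 10.03, 9.35 and 10.32. Its response was thus 66.1-fold in one genotype and 6.95-fold in the other, and the interaction was -3.25 (SE 0.36, adjusted p = 0.00102).

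*Sel1l* and *Syvn1* encode the adaptor and the ubiquitin ligase HRD1 of one complex. *Sel1l* was 10.23, 10.53 and 10.19 with vehicle and 13.40, 13.53 and 13.33 after TM in wild-type liver, and 10.25, 10.31 and 10.40, and 11.63, 11.78 and 11.81, in Atf6α-/- liver. The groups given vehicle overlapped and the groups given TM did not. The interaction was -1.69 (SE 0.15, adjusted p = 0.000193) for *Sel1l* and -1.68 (SE 0.22, adjusted p = 0.00335) for *Syvn1*. Of the others on the list, *Herpud1* had -0.43 (adjusted p = 0.531), *Derl1* -0.09 and *Edem3* -0.18.

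*Edem1*, a lectin that extracts misfolded glycoproteins, had an interaction of -0.98 (adjusted p = 0.0170) by its brightest probeset and of -1.71 (adjusted p = 0.000767) by another. *Pdia3* likewise had -1.04 (adjusted p = 0.0427) by the brightest and -2.37 (adjusted p = 6.12e-05) by a second. For these genes the size of the interaction depends on the probeset, while the sign is shared. The call of *Edem1* by its brightest probeset was lost without Atf6α-/- vehicle animal 2 or wild-type TM animal 2. The call of *Pdia3* by its brightest probeset was lost without any one of 11 arrays, and that of *Magt1* (-0.89, adjusted p = 0.0360) without any one of 10. On the list of ER to Golgi transport, 0 of 43 genes passed (median -0.17), against 0.748% of all genes called lower and 1.06% called higher. The nearest were *Copz1*, a coat protein of Golgi vesicles (-0.65, adjusted p = 0.0821), and *Mcfd2*, a cargo receptor subunit (-0.57, adjusted p = 0.103).

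**Figure D3:**
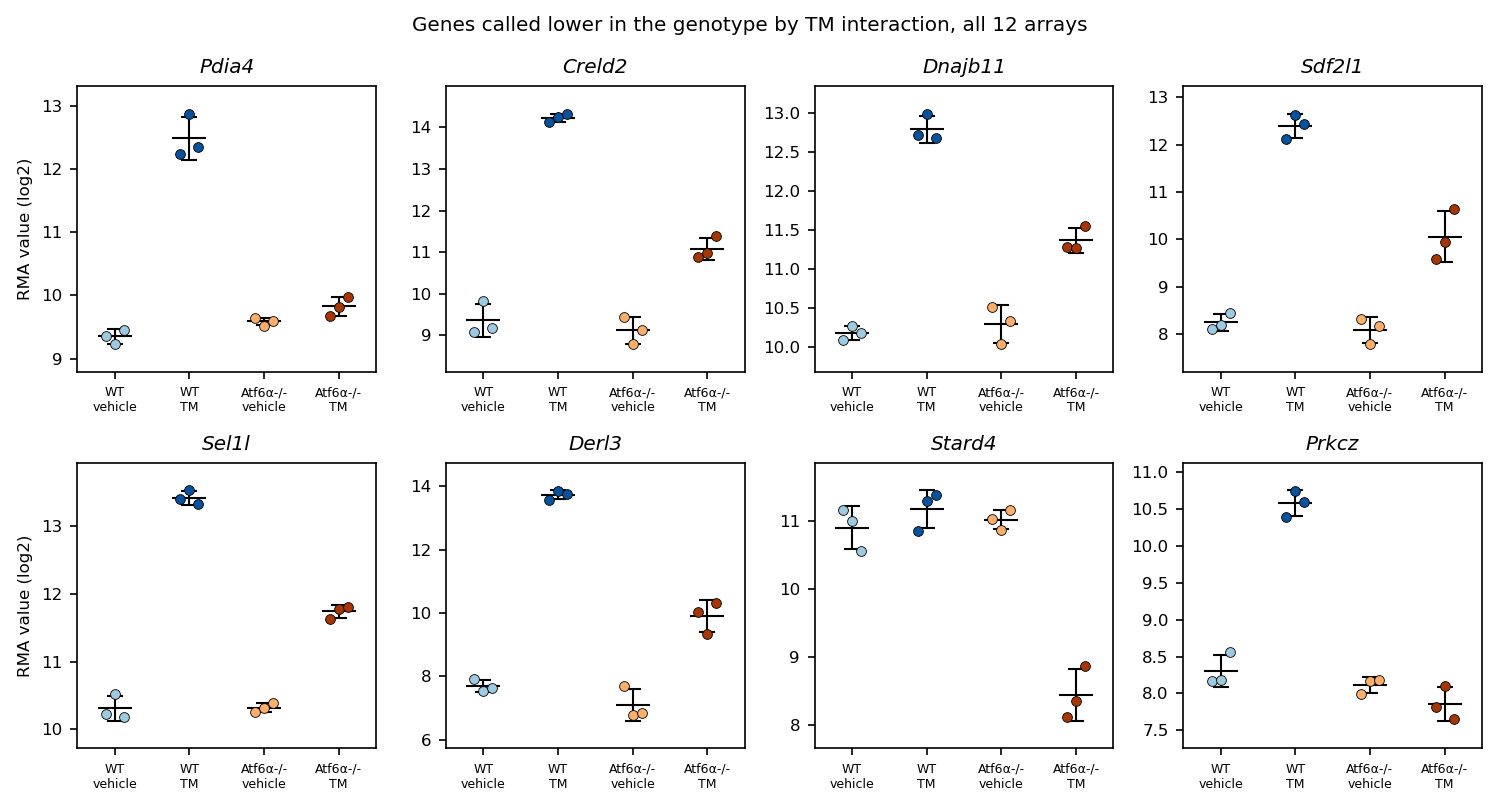
RMA values (log2) of 8 genes called lower in all 12 arrays (WT, wild-type), with 1 point per animal and the mean ± SD of 3 animals per group. The wild-type TM points stand apart in 7 of the genes, whereas in *Stard4* the Atf6α-/- TM points stand apart below the other 3 groups.

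Promoter sequences were available from RefSeq (GRCm38.p6), from 250 bases before to 50 bases after the start of transcription, for 14452 of 18193 genes, including 116 called lower and 166 called higher. They were searched on both strands for the ER stress response element (ERSE), CCAAT and CCACG with 9 bases between them, and for ERSE-II, ATTGG and CCACG with 1 base between them. One or the other was in 5 promoters (4.31%) of the genes called lower, 0 of those called higher and 29 (0.201%) of all genes. The 5 were *Creld2*, *Derl3* and *Syvn1*, with an ERSE, and *Dnajb11* and *Nucb1*, with an ERSE-II. The stretches of 4 of them are shown because these letters occur in genes whose response was called smaller, with the fixed letters of the element in capitals and read along the gene's strand. In *Creld2* and *Derl3* the element runs on the opposite strand.

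*Creld2*, chr15:88819500-88819558 (+): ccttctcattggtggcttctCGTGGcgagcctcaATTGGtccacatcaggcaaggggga

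*Derl3*, chr10:75893222-75893280 (+): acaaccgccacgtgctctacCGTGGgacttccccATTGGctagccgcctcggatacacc

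*Syvn1*, chr19:6046512-6046570 (+): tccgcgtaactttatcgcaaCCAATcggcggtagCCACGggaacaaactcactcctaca

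*Dnajb11*, chr16:22857832-22857872 (+): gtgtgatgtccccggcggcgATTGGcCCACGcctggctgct

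The element began 126 bases before the start of transcription in *Creld2*, 156 before it in *Derl3*, 44 before it in *Syvn1* and 7 bases after it in *Dnajb11*. The windows of the other 111 matched genes called lower, *Pdia4* and *Sel1l* among those searched, held neither letter pattern, which says only that these letters are not in this window. Of the other motifs, the cyclic AMP response element (TGACGTCA, the same on both strands) was in 7.23% of promoters called higher, 1.72% of those called lower and 2.92% of all. The core of the UPR element (TGACGTGG) was in 0, 0.862% and 0.989%, and the CARE motif read by ATF4 and C/EBP (TGATGNAA) in 5.42%, 2.59% and 3.24%. A match is a description of the letters and not a measured site.

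Beyond the ER lists, the strongest statistics among genes called lower belonged to genes of varied function. *Pim2*, a survival kinase, was 6.43, 6.50 and 6.31 with vehicle and 8.98, 10.02 and 9.61 after TM in wild-type liver, and 6.39, 6.32 and 6.60, and 5.72, 5.91 and 5.58, in Atf6α-/- liver. It was higher with TM in one genotype and lower with TM in the other, without overlap in either, and the interaction was -3.83 (SE 0.29, adjusted p = 5.79e-05). *Prkcz*, the atypical protein kinase C zeta, had a response of 2.27 in wild-type and -0.25 in Atf6α-/- liver (interaction -2.53, adjusted p = 7.97e-05). Its other probesets had -2.77, a call, and -0.60, which was not called (adjusted p = 0.0922). *Nde1*, a dynein regulator, had 4.01 and 0.65 (-3.36, adjusted p = 7.23e-05) and *Tes*, a LIM protein of focal adhesions, 4.90 and 1.33 (-3.58, adjusted p = 0.000197).

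Others of these genes had smaller responses in wild-type liver. *Mxd1*, a repressor that competes with MYC for MAX, had an interaction of -1.79 (adjusted p = 5.79e-05), with responses of 1.44 and -0.34. *Cyld*, a deubiquitinase that restrains NF-κB, had -1.58 (adjusted p = 0.000193) and *Phkg2*, the catalytic subunit of liver phosphorylase kinase, -1.60 (adjusted p = 0.000235). *Tbccd1* had -2.06, *Rpain*, an importer of replication protein A, -1.58, and *Mroh1* -1.52. For *Rpain* and *Mroh1* the wild-type response was 0.85 and 0.71 and the Atf6α-/- response was -0.73 and -0.81. Probesets not called had -0.21 for *Mroh1* (adjusted p = 0.738), -0.12 for *Rpain* (0.845), -0.65 for *Mxd1* (0.198) and 0.15 for *Cyld* (0.843). Further probesets called lower had -1.38 for *Rpain*, -1.57 for *Mxd1*, -1.86 for *Tbccd1*, and -1.86 and -1.45 for *Cyld*.

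Cholesterol synthesis and sterol handling held 2 calls lower and 0 higher among 23 genes, against 0.748% and 1.06% of all genes. The median of the list was -0.24. *Stard4* carries cholesterol between membranes. Its values were 11.16, 10.99 and 10.55 with vehicle and 10.85, 11.29 and 11.37 after TM in wild-type liver, and 11.03, 10.87 and 11.15, and 8.12, 8.35 and 8.87, in Atf6α-/- liver. Only Atf6α-/- animals given TM were low, at 0.168-fold of vehicle, and the interaction was -2.84 (SE 0.29, adjusted p = 0.000507).

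*Mvd*, mevalonate diphosphate decarboxylase, took the other form. It was 8.44, 7.80 and 8.02 with vehicle and 10.24, 10.94 and 10.72 after TM in wild-type animals, and 7.13, 8.45 and 8.08, and 6.85, 7.06 and 7.13, in Atf6α-/- animals. The wild-type TM arrays alone were high, and the interaction was -3.42 (SE 0.41, adjusted p = 0.00157). The other enzymes of the pathway did not share it. *Hmgcs1* had -0.48, *Sqle* -0.24 and *Lss* 0.22, with adjusted p of 0.749, 0.820 and 0.843. The median of the list was 0.02 without the 4 arrays with Y-linked signal, and it lay between -0.46 (without Atf6α-/- vehicle animal 1) and -0.01 (without Atf6α-/- vehicle animal 3) when 1 array was left out.

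Of 34 genes of the PERK and ATF4 branch 3 were called higher (1.06% of all genes were) and 0 lower, and 14 had an interaction below 0. The median was 0.19, and it was 0.06 without Atf6α-/- TM animal 2, 0.08 without Atf6α-/- vehicle animal 2 and 0.10 without wild-type TM animal 3. The lowest member was *Chac1*, which degrades glutathione (-1.42, adjusted p = 0.0875). *Ppp1r15a* encodes GADD34, which directs the dephosphorylation of eIF2α. It read 7.70, 7.75 and 7.48 with vehicle and 10.10, 10.11 and 10.14 after TM in wild-type liver, and 7.73, 7.62 and 7.76, and 11.50, 11.33 and 11.32, in Atf6α-/- liver. Each TM group was high, the Atf6α-/- group the higher of the pair, and the interaction was 1.20 (SE 0.13, adjusted p = 0.000985).

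*Atf3*, a stress-induced transcription factor, went from 5.93, 5.44 and 5.47 to 11.46, 10.85 and 11.27 after TM in wild-type animals and from 5.31, 5.41 and 5.20 to 12.52, 12.42 and 12.36 in Atf6α-/- animals. The TM groups did not overlap, and the interaction was 1.55 (SE 0.23, adjusted p = 0.00632). *Sesn2*, which reports amino acid shortage to mTORC1, had 0.96 (adjusted p = 0.0325), a call lost without any one of 10 arrays. *Atf4* had -0.15 (adjusted p = 0.842) and *Trib3* 1.20 with an SE of 0.71 (adjusted p = 0.594). *Ddit3*, which encodes CHOP, had responses of 6.79 and 6.13 and an interaction of -0.67 (adjusted p = 0.0526).

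On the list of UPR sensors and transcription factors 0 of 19 genes passed (median -0.12). *Xbp1* had 0.10 (adjusted p = 0.851), which does not bear on its splicing, and *Eif2ak3*, which encodes PERK, -0.12 (adjusted p = 0.902). *Ern1*, which encodes IRE1α, had 1.06 (adjusted p = 0.0940) by its brightest probeset, and 0.94 (adjusted p = 0.0128), a call, by another. Its remaining 3 probesets had -0.15, 0.22 and 0.38 and were not called. Among cytosolic tRNA synthetases 3 of 19 were called higher and 1 lower, against 1.06% and 0.748% of all genes. *Wars* for tryptophan was lower (-1.11, adjusted p = 0.00672), with 3 further probesets also called lower, whereas *Mars1* for methionine (1.18, adjusted p = 0.0303), *Rars* for arginine (0.81, adjusted p = 0.0342) and *Tars* for threonine (1.01, adjusted p = 0.0476) were higher. These 3 calls were lost without any one of 7, 9 and 11 arrays, respectively.

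Immediate early genes, transcribed within minutes of a stimulus without new protein, held 6 calls higher (1.06% of all genes were) and 0 lower among 26. Their median was 0.49, and it was 0.92 without wild-type vehicle animal 2. *Jun* was 7.05, 7.03 and 6.95 with vehicle and 8.46, 7.34 and 8.49 after TM in wild-type liver, and 6.76, 6.84 and 7.22, and 10.35, 10.03 and 10.05, in Atf6α-/- liver. One wild-type TM animal lay close to the vehicle arrays, and the 3 Atf6α-/- TM animals were above all others. The response was 2.12-fold in wild-type and 9.23-fold in Atf6α-/- liver and the interaction was 2.12 (SE 0.35, adjusted p = 0.0122). *Myc* followed, at 6.68, 6.77 and 6.99, and 8.41, 8.15 and 8.39, in wild-type animals and 7.24, 6.87 and 6.81, and 10.80, 9.83 and 10.24, in Atf6α-/- animals (interaction 1.82, SE 0.29, adjusted p = 0.00923).

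*Klf11*, a repressor induced by TGF-β, had responses of 0.02 and 1.55 (interaction 1.53, adjusted p = 0.00754). *Ier2* was distinct among the called genes of the list, since it was low after TM in wild-type liver (7.62, 7.44 and 7.52 against 8.83, 8.64 and 8.85 with vehicle) and not in Atf6α-/- liver, where TM and vehicle overlapped. Its interaction was 1.20 (adjusted p = 0.00169). The partner of JUN, *Fos*, had 1.23 with an SE of 0.58 and did not pass (adjusted p = 0.461). Of 18 genes of growth arrest and apoptosis 2 were called higher (1.06% of all genes were) and 0 lower. *Gadd45a*, induced by stress and DNA damage, had 6.21-fold and 21.9-fold responses (interaction 1.81, SE 0.30, adjusted p = 0.0113), and *Mcl1*, an inhibitor of apoptosis, had 1.00 (adjusted p = 0.0268), a call lost without any one of 9 arrays. The other 5 probesets of *Mcl1* had between 0.27 and 0.92 and none of them passed, with adjusted p from 0.117 to 0.828.

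**Figure D4:**
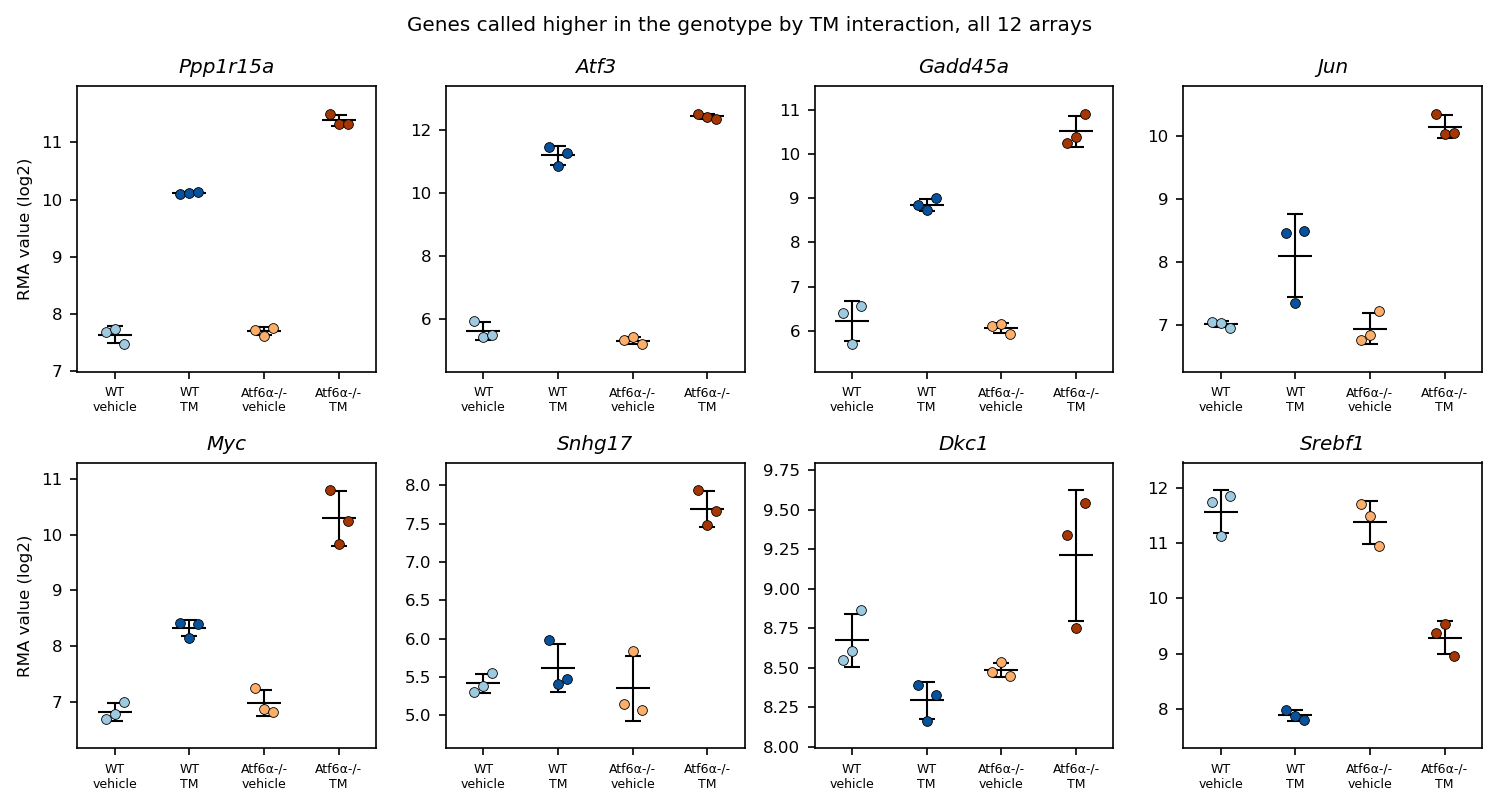
RMA values (log2) of 8 genes called higher in all 12 arrays (WT, wild-type), with 1 point per animal and the mean ± SD of 3 animals per group. In all 8 the Atf6α-/- TM points lie above the wild-type TM points, and in *Srebf1* both lie below the vehicle points.

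Most genes of ribosome biogenesis had a positive interaction. Of 40 genes 37 had an interaction above 0 and the median was 0.57, against -0.02 over all genes. Of the 40, 3 were called higher and 0 lower, against 1.06% and 0.748% of all genes. The 3 were *Grwd1* (1.17), *Gar1* (1.13) and *Dkc1* (1.10), with adjusted p of 0.0451, 0.0459 and 0.0460. The other probesets, none of them called, had 0.33 and 0.96 for *Grwd1* (adjusted p = 0.829 and 0.0687). For *Dkc1* they had 0.67 and 1.13 (adjusted p = 0.123 and 0.246). With the mean of a gene's probesets the calls of *Grwd1* and *Dkc1* were lost. *Gar1* and *Dkc1* belong to the particles that guide pseudouridylation, and *Grwd1* takes part in assembling the large subunit. The median response of the list was 0.81 in wild-type and 1.43 in Atf6α-/- liver. The median lay between 0.41 and 0.71 under the other normalizations, covariates, weights and omissions of arrays, and was not recomputed with other probesets. The 3 calls were lost without any one of 9, 9 and 11 arrays.

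Non-coding host genes, whose introns carry small nucleolar RNAs, held 2 calls higher and 0 lower among 11, against 1.06% and 0.748% of all genes. Their median was 0.69, and it was 0.34 without Atf6α-/- TM animal 3. *Snhg17* was 5.31, 5.39 and 5.55, and 5.98, 5.41 and 5.47, in wild-type animals, and 5.14, 5.83 and 5.08, and 7.94, 7.48 and 7.66, in Atf6α-/- animals. Only Atf6α-/- animals given TM were high, and the interaction was 2.14 (SE 0.29, adjusted p = 0.00395). *Snhg12* had responses of 2.36 and 3.62 (interaction 1.26, adjusted p = 0.0194). Its call was lost without Atf6α-/- TM animal 1, wild-type TM animal 2 or wild-type vehicle animal 3. *Snhg3*, on the same list, had -0.45 (adjusted p = 0.738). *Snhg16*, which was not on the list, had 1.72 (adjusted p = 0.00121) by its brightest probeset and 0.38 (adjusted p = 0.742) by the other. The cytosolic ribosomal proteins themselves had a median of 0.11, and 0 of 27 passed. Their largest statistics were those of *Rpl12* (0.66, adjusted p = 0.451) and *Rpl14* (0.39, adjusted p = 0.452).

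The other genes with the largest statistics among those called higher included *Fzd7*, a WNT receptor, with responses of -0.08 and 1.49 (interaction 1.57, adjusted p = 0.000500), and *Plekhh3*, with 0.62 and 2.13 (1.51, adjusted p = 0.000465). *Tgif1*, a corepressor of SMAD proteins, had 1.35, *Itpkc*, an inositol trisphosphate kinase, 1.62, and *Kbtbd7*, an adaptor of cullin 3, 1.20. *Riox1*, a nucleolar oxygenase, had 1.07 and *Ctu1*, which thiolates transfer RNAs, 1.18, and the zinc finger genes *Zfp568* and *Zfp623* had 1.03 and 1.19. Not every probeset of these genes was called. A second one had 0.09 for *Fzd7* (adjusted p = 0.925), 0.22 for *Itpkc* (adjusted p = 0.747) and 0.11 for *Zfp568* (adjusted p = 0.879). The call of *Zfp568* was lost with the mean of its probesets (0.57, under the fold limit). *Kbtbd7* had 1.47 (adjusted p = 0.0161) by a second probeset and -0.32 (adjusted p = 0.506) by the other.

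*Smarcb1*, a subunit of SWI/SNF chromatin remodelling complexes, had the largest statistic of the calls higher, with an interaction of 2.43 by its brightest probeset (SE 0.21, adjusted p = 0.000182). This probeset was at 6.28, 5.70 and 5.71 in wild-type animals given TM and between 7.66 and 8.32 in the other 9. A second probeset assigned to the gene had -4.40 (adjusted p = 5.19e-07) and the third had 0.17 (adjusted p = 0.720), so no direction can be given for the gene. *Derl3*, called lower, is its neighbour on chromosome 10. *Smarcb1* was the 1 gene with probesets called in both directions. Of the 329 called genes 179 had several probesets, and in 143 of these all had the sign of the called one.

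Among regulators of lipid metabolism and hepatocyte transcription factors, 2 of 26 were called higher and 0 lower (median 0.29). The shares of all genes were 1.06% and 0.748%. *Srebf1*, the regulator of fatty acid synthesis, was 11.74, 11.12 and 11.84 with vehicle and 7.99, 7.88 and 7.79 after TM in wild-type liver, and 11.70, 11.48 and 10.94, and 9.37, 9.53 and 8.96, in Atf6α-/- liver. It was low with TM in both genotypes and lower in wild-type, and the interaction was 1.59 (SE 0.31, adjusted p = 0.0293), a call lost without any one of 8 arrays. *Prox1*, a homeodomain factor of hepatocytes, had 1.34 (adjusted p = 0.0360) by its brightest probeset and 0.43 and 0.28 by 2 others that did not pass, and its call was lost without any one of 8 arrays.

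Among the uncalled regulators with negative responses in both genotypes were the 3 given next. *Ppargc1a*, a coactivator of oxidative metabolism, had responses of -2.90 in wild-type and -3.03 in Atf6α-/- liver (interaction -0.13, SE 0.46), *Ppara* -1.67 and -1.65 (0.02, SE 0.38) and *Cebpa* -1.13 and -0.86 (0.28, SE 0.15), with adjusted p of 0.961, 0.992 and 0.554. *Hnf4a*, a nuclear receptor of hepatocytes, had positive responses of 0.36 and 0.94 (interaction 0.58, adjusted p = 0.304). The TM means of *Ppargc1a*, 4.46 in wild-type and 4.42 in Atf6α-/- liver, lay below every array median, near the lower limit of signal. A difference between its responses may therefore be hard to read. A p that misses the threshold does not show that the responses were equal. Of 35 genes of fatty acid synthesis, triglyceride assembly and lipoproteins 1 was called higher (1.06% of all genes were) and 0 lower. This was *Angptl8*, a hormone that inhibits lipoprotein lipase, at 9.18, 9.09 and 8.69, and 7.86, 7.31 and 7.98, in wild-type animals and 8.66, 8.68 and 8.22, and 9.72, 10.80 and 8.86, in Atf6α-/- animals. It was low with TM in one genotype and high in the other (interaction 2.54, SE 0.52, adjusted p = 0.0375), and the call was lost without any one of 10 arrays.

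No gene passed among 33 of fatty acid oxidation and ketogenesis (median -0.05), 32 cytochromes P450 (-0.15), 24 acute phase proteins (-0.06), 17 cytosolic heat shock chaperones (0.00) or 31 proteasome subunits (-0.04). Of all genes 1.06% were called higher and 0.748% lower. The members with the largest statistics were *Etfb* (-0.22) and *Cpt2* (-0.34), *Cyp2c29* (-0.39) and *Cyp3a25* (-0.41), *Orm2* (-2.56, SE 0.80) and *Saa2* (-1.10), *Stip1* (-0.52) and *Hspa4* (0.45), and *Psmc1* (-0.24) and *Psmd12* (0.27). The Atf6α-/- TM arrays read 9.15, 6.34 and 7.68 for *Orm2*, so that the spread between animals was wide. Under the other normalizations, covariates, weights and omissions of arrays the median of the heat shock list lay between -0.16 and 0.03.

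Of 30 genes of the cell cycle and DNA replication 2 were lower and 1 higher (median 0.10), against 0.748% and 1.06% of all genes. *Ube2c*, the ubiquitin-conjugating enzyme of the anaphase-promoting complex, read 6.15, 5.19 and 6.14, and 9.50, 10.51 and 10.07, in wild-type liver and 5.21, 5.45 and 4.93, and 5.92, 5.46 and 5.75, in Atf6α-/- liver. Its response was 18.4-fold in wild-type and 1.43-fold in Atf6α-/- animals (interaction -3.69, SE 0.40, adjusted p = 0.000767). *Ccne2*, cyclin E2, had -1.32 (adjusted p = 0.00873), and 3 of its 4 group means lay below every array median. *Mcm7*, a subunit of the replicative helicase, had 1.17 (adjusted p = 0.0259), a call lost without any one of 7 arrays. Of 18 clock genes *Per1* was lower (-1.19, adjusted p = 0.0371) and *Rora* higher (0.98, adjusted p = 0.0478), with calls lost without any one of 10 and 11 arrays.

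**Figure D5:**
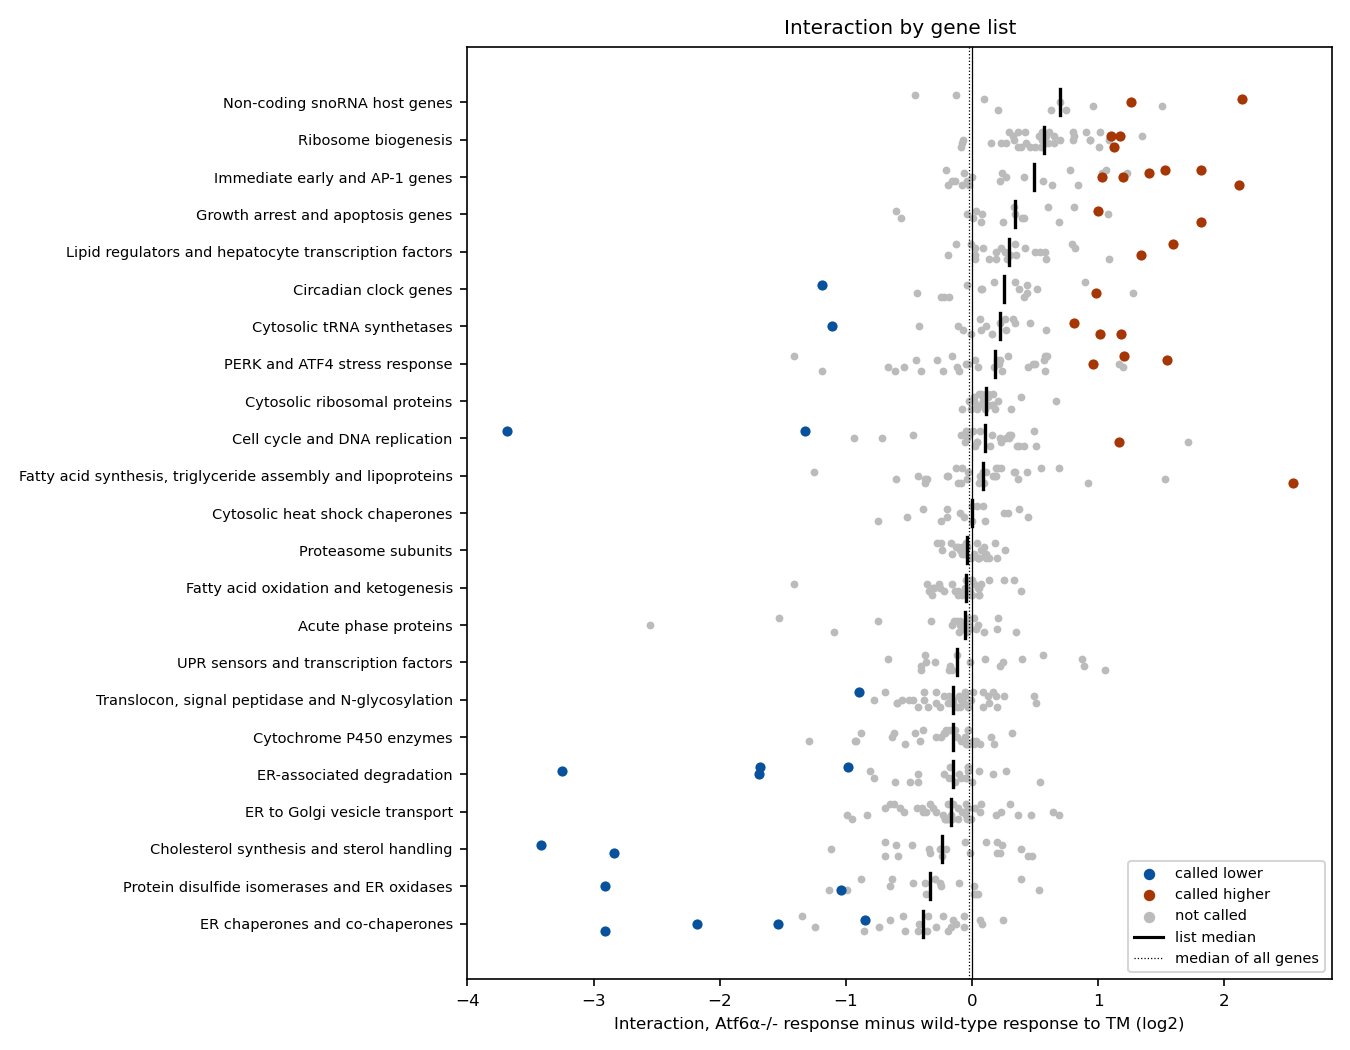
Interaction (Atf6α-/- response minus wild-type response, log2, x axis) of every measured member of 23 gene lists, ordered by list median (black bar), with genes called lower in blue, called higher in brown and not called in grey. Among the lists with medians below 0 there are calls lower on 5 and calls higher on 0. With all 12 arrays the medians furthest above 0 are those of the snoRNA host genes (0.69) and ribosome biogenesis (0.57) at the top. This order changed in several settings. Among them were omissions of wild-type vehicle animal 2 (immediate early genes 0.92) and of Atf6α-/- TM animal 3 (snoRNA host genes 0.34). Without Atf6α-/- vehicle animal 1, immediate early genes had 0.64 and snoRNA host genes 0.62. With array weights, immediate early genes (0.55) lay above ribosome biogenesis (0.54).

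Around the limit of the test, the last genes called were *Lamc1* (0.94, adjusted p = 0.0494), *Il23a* (1.40, adjusted p = 0.0494) and *Snai1* (-0.67, adjusted p = 0.0497), and the first not called were *Spryd3* (-0.92, adjusted p = 0.0501), *Txnrd3* (0.79, adjusted p = 0.0502) and *Gm10658* (1.00, adjusted p = 0.0513). The sign of all 329 called genes was the same within the arrays with Y-linked signal, 1 per group, and within the others, 2 per group, although the genes had been chosen on those arrays. On the linear scale the difference of the 2 responses had the sign of the call in all 329. It comes from the arrays on which the genes were chosen and adds no independent support.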

How the data were processed

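Liver RNA of 12 mice was hybridised to Affymetrix mouse arrays, 1 per animal. The authors deposited log2 values made by RMA, per the labels with the affy package (limma is also named, with versions not given in the sources used here). RMA subtracts background, quantile normalizes all arrays together and summarises probes, and so assumes like distributions. The values were used as deposited. Groups came from the sample titles. With limma 3.58.1 in R 4.3.3, all 12 arrays entered one linear model of 4 group means, with eBayes (8 residual and 4.25 prior degrees of freedom), and the interaction was tested for 45037 probesets. Where the methods give the limits for p and fold they name no adjustment, and Benjamini-Hochberg was used here. The annotation names 1 gene for 34945 probesets, several for 932 and none for 9160. No probeset names *Ppia* alone, and the one that also names *Gm9234* was used for centring. The smallest interaction called was 0.60, the median standard error was 0.17, and the number of arrays limits the precision. The procedure was tested on simulated data.

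The comparison and the 23 gene lists and 9 marker lists were chosen with earlier results of these data known. Named genes were the 14 genes called lower and 14 called higher with the largest statistics (without Y-linked genes, *Xist* and unnamed transcripts), per list up to 5 called members or else up to 2 with the largest statistics, *Atf6*, *Eif2s3y*, *Xist* and *Btf3*. Other genes were named after their values were seen, among them *Hspa5*, *Hsp90b1*, *Manf*, *Dnajc3*, *Pdia6*, *Ppara* and *Ppargc1a*. Replicates are separate animals. The alternatives were other normalizations, centring on *Btf3* and *Ppia*, a block of animal numbers, Y-linked signal minus *Xist* as covariate, omitting the arrays with that signal or each array, array weights, other variance estimates, other thresholds, only bright probesets, a mean over a gene's probesets, and leaving out probesets shared between transcripts.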

Additional observations from a re-analysis of the deposited data

Results flagged for a closer look

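The responses to TM differed between the genotypes, by limma's interaction test, in 193 genes called higher and 136 called lower. With the largest statistics, the differences among the genes called lower were -2.91 for *Pdia4*, -3.83 for *Pim2*, -1.79 for *Mxd1*, -2.06 for *Tbccd1*, -3.36 for *Nde1*, -2.53 for *Prkcz*, -1.58 for *Rpain*, -1.69 for *Sel1l*, -1.58 for *Cyld*, -3.58 for *Tes*, -1.60 for *Phkg2*, -1.52 for *Mroh1*, -2.91 for *Creld2* and -2.84 for *Stard4*. Among the genes called higher they were 2.43 for *Smarcb1*, 1.51 for *Plekhh3*, 1.57 for *Fzd7*, 1.20 for *Ppp1r15a*, 1.72 for *Snhg16*, 1.20 for *Ier2*, 1.03 for *Zfp568*, 1.07 for *Riox1*, 1.35 for *Tgif1*, 1.20 for *Kbtbd7*, 1.18 for *Ctu1*, 1.62 for *Itpkc*, 2.14 for *Snhg17* and 1.19 for *Zfp623*. In each of these genes the 3 Atf6α-/- TM arrays lay beyond the 3 wild-type TM arrays in the direction of the call, as they did in 1845 (10.1%) of all genes downwards and 2434 (13.4%) upwards. The genes were chosen on these same arrays, and all 193 and 136 called genes had this separation, so it adds no independent support. Groups of 3 animals are too small to single out one of them as far from the rest.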

How the results depend on the processing

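The number of calls higher moved further between settings than that of calls lower, and the cause was not tested. Against 193 and 136 genes, centring on *Btf3* and *Ppia* gave 107 higher, the covariate of Y-linked signal 309 higher, a 2-fold threshold 96 higher, an unadjusted p 896 higher and 376 lower, and an ordinary t without eBayes 30 higher and 43 lower. Leaving out 1 array gave 64 to 235 genes higher and 82 to 162 lower. Fewest were higher without wild-type TM animal 2 (64), wild-type vehicle animal 3 (68), Atf6α-/- vehicle animals 1 (73) and 2 (81), wild-type TM animal 3 (82) and Atf6α-/- TM animal 1 (90), and lower without wild-type TM animal 2 (82) and Atf6α-/- vehicle animals 1 (85) and 2 (86). Quantile normalization gave 142 and 149, cyclic loess 172 and 147, omitting the 4 arrays with Y-linked signal 275 and 174, the mean of all probesets 193 and 157. *Smarcb1* was at -0.60 by the mean of its probesets. Same-numbered arrays did not correlate throughout in their deviations from the group means (6 of 18 pairs over 0.1, range -0.48 to 0.39). Differently numbered arrays were not compared, so whether the animal numbers pair the samples was not settled. With the replicate block 165 and 125 genes were called. Of 61 named and called genes 29 kept the call in every setting that covered them, which was 26 or 27 settings per gene. Another 31 lost it in at least 1 and *Smarcb1* reversed. The settings with an unadjusted p and without a fold limit only loosen the limits, so no call could be lost in them. Of the 61, 41 kept the call without any 1 array, and the other 20 had adjusted p from 0.0170 (*Edem1*) to 0.0478 (*Rora*). The interaction on the linear scale, taken from the same arrays, kept the sign of every called gene. The number of arrays, and signal near the array median, limit what could be called: 17 of 136 genes lower and 7 of 193 higher had wild-type vehicle means below every array median.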

Other observations

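Zinc finger genes, a large class of transcriptional regulators, were looked at as a group after the values were seen, so the counts carry no test. Of 400 genes with the symbols Zfp, Zbtb, Zscan, Zkscan or Zfx, 26 (6.50%) were called higher, against 1.06% of all genes, and 1 (*Zbtb32*) was called lower. Their median interaction was 0.26, and 300 of 400 lay above 0. The largest calls among them were *Zfp948* at 1.89 (adjusted p = 0.00451) and *Zfp719* at 1.46 (adjusted p = 0.0359). Genes of RNA modification, helicases and kelch genes were likewise grouped by symbol after the values were seen, and their counts carry no test. Of 31 with the symbols Trm, Pus, Ctu, Qtrt or Mrm, 5 (16.1%) were called higher and 0 lower (*Ctu1*, *Mrm1*, *Pus7l*, *Trmt2a* and *Trmt61a*), with a median of 0.48. Of 51 Ddx and Dhx genes 4 (7.84%) were called higher and 0 lower. Of 42 Kbtbd and Klhl genes 3 (7.14%) were called higher and 0 lower, with a median of 0.05 and 24 above 0. The shares of all genes were 1.06% higher and 0.748% lower.

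By size, the largest interaction of a gene by its brightest probeset was that of *Far1*, which reduces fatty acyl-CoA to fatty alcohol. It was 5.75, 5.52 and 5.83 with vehicle and 8.68, 11.70 and 10.37 with TM in wild-type liver, and stayed between 5.41 and 6.01 in Atf6α-/- liver (-4.66, SE 0.74, adjusted p = 0.00892). The wild-type TM animals spread over about 3 log2 units, and all lay above the others. *Far1* has 5 probesets and only the brightest is given here. The largest interaction of any probeset was 5.33 in absolute size. *Pklr*, the liver pyruvate kinase, was called higher at 1.27 (adjusted p = 0.00515), yet its genotypes already differed by -0.94 with vehicle.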
